A study of Mus musculus with 4 samples.

Results

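The peaks of the transcription factor Foxo1 at 3 genes, Junb, Per1 and Otud1, are described here. Members were peaks whose summit, the position of highest signal in a peak, fell into a window on mouse genome build mm9 that spans each gene with about 50 kb on either side. The windows were chr8:87450000-87553000 for Junb, chr11:68858000-68974000 for Per1 and chr2:19529000-19632000 for Otud1. They held 4 of the 2507 peaks of the antibody list and 4 of the 723 peaks of the biotin list, which is 8 of 3230 peaks in all. The genes were chosen by the high folds of their peaks in these lists and by the overlap of these peaks, so folds, ranks and overlap are given as a description and carry no test.

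The series consists of 4 chromatin immunoprecipitation sequencing (ChIP-seq) samples from CD4+ T cells of C57BL/6 mice, with 1 library in each group. The antibody ChIP used cells of C57BL/6 mice and an Abcam antibody that recognises Foxo1. In the biotin ChIP, cells came from Foxo1tagBirA mice, which carry a tagged Foxo1 on both alleles (Foxo1tag/tag) together with BirA, a bacterial enzyme that attaches biotin to the tag, and the DNA was recovered on streptavidin beads. An input library belongs to each ChIP. The sources used here do not give the promoter that drives BirA, the age and sex of the mice or the number of animals behind a library. The values compared are those of peak lists, so that no replicate error exists for any of them, the depth behind a peak is unknown, and the identity of the cells cannot be checked against markers.

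Foxo1 is a forkhead factor that binds DNA through a winged-helix domain and recognises a short sequence with the core TGTTTAC. In T cells it acts in the nucleus while signalling through PI3K and Akt is low and leaves it when Akt phosphorylates it. The genes described here encode proteins of unrelated function. Junb encodes JunB, a leucine zipper subunit of the dimeric factor AP-1, and is an immediate early gene. Per1 encodes a repressor in the negative limb of the circadian clock and is also induced rapidly by hormones and cyclic AMP. Otud1 encodes a deubiquitinase of the OTU family, which removes ubiquitin from target proteins.

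The sequences just upstream of the annotated starts are shown because 2 of the 3 genes hold the forkhead core there. They were taken from RefSeq promoters on build GRCm38.p6, in the direction of transcription, and each gives the 250 bases before an annotated start. Capitals mark the forkhead core on either strand (TGTTTAC, or GTAAACA where it lies on the other strand) and the E-box CACGTG, the palindrome bound by clock factors such as CLOCK and BMAL1 and by the MYC family. The E-box was looked for after the sequences had been seen. The stretches are chr8:84978749-84978998 on the minus strand for Junb and chr2:19657481-19657730 on the plus strand for Otud1. For the first of the 2 Per1 starts in the table, the stretch is chr11:69098699-69098948 on the plus strand. This start lies 3841 bp inside the gene's span, so its stretch is not read as the site of the Per1 peaks.
Junb: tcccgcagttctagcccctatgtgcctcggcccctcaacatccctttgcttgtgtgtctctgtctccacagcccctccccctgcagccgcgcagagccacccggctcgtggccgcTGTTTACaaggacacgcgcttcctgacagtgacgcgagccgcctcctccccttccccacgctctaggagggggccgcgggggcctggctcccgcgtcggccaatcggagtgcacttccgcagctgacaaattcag
Otud1: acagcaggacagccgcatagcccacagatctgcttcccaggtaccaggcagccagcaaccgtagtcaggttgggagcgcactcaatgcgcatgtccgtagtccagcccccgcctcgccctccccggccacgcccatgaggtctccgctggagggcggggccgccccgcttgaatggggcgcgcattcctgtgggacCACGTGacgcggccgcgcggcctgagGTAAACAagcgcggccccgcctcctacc
Per1: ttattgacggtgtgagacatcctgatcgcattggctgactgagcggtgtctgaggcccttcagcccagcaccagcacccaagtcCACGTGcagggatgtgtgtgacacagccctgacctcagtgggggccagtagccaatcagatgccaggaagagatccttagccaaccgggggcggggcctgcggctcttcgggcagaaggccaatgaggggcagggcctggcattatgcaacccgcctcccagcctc

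Each of the 3 genes had a peak of very high fold in both lists at the same site, and little else in its window. The fold is the authors' own linear ratio for a peak. Its reference is not given in the sources used, so it was read within a list only. At Otud1 the antibody peak (chr2:19579284-19579384) had a fold of 53.2 and ranked 2 of 2507. Its biotin partner (chr2:19579278-19579383) had a fold of 19.9 and ranked 11 of 723. Among the 185 antibody peaks and the 56 biotin peaks of chromosome 2, these were the highest.

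At Junb the antibody peak (chr8:87502787-87502811) had a fold of 51.0 and ranked 6 in its list. The biotin peak (chr8:87502721-87502824) had a fold of 22.7 and ranked 8. Both were again the highest of their chromosome, with 144 antibody and 44 biotin peaks on chromosome 8. At Per1 the antibody peak (chr11:68908358-68908397) had a fold of 42.1 and ranked 17, which placed it in position 3 of the 183 antibody peaks of chromosome 11. The biotin peak there (chr11:68908318-68908364) had a fold of 21.7, ranked 10 and was the highest of 64.

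The folds of the 3 sites were of similar size within each list. In the antibody list the order was Otud1, Junb, Per1, with the highest fold 1.26 times the lowest. In the biotin list it was Junb, Per1, Otud1, with a ratio of 1.14. With 1 library per list there is no spread against which either order could be set. Relative to the median of their list (9.43 antibody, 5.61 biotin), the antibody folds were 5.64 times as high at Otud1, 5.41 times at Junb and 4.47 times at Per1. The biotin folds were 3.55, 4.05 and 3.86 times the median in the same order.

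**Figure D1:**
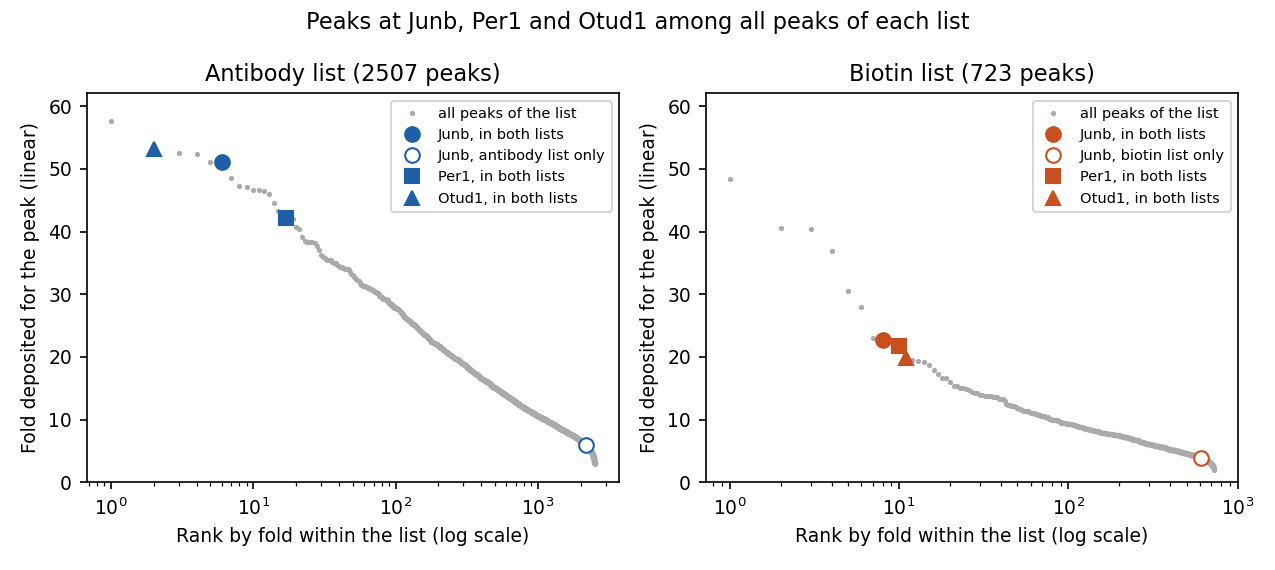
Fold deposited for each peak (linear axis) against its rank within the antibody list (left) and the biotin list (right), with ranks on a log axis. Grey points are all peaks, filled symbols peaks found in both lists and open symbols peaks found in 1 list. The filled symbols of Junb, Per1 and Otud1 sit at ranks 2 to 17 of the antibody list and 8 to 11 of the biotin list, and the open Junb symbols at ranks 2179 and 607.

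The authors' p-values gave no order among these sites. The antibody peaks had deposited p-values of 1.11e-16 at Junb, 2.22e-16 at Per1 and 3.33e-16 at Otud1. These are 1, 2 and 3 steps of 1.11e-16, the spacing of double-precision numbers just below 1. In the biotin list the value was 1.11e-16 at Per1 and was listed as 0 at Junb and Otud1.

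Of the members, 3 of 4 antibody peaks and 3 of 4 biotin peaks overlapped a peak of the other list by at least 1 bp. Over the whole lists 13.6% of antibody peaks and 47.2% of biotin peaks did. The genes were chosen for such peaks, so the share among the members is not read against these values. All 6 peaks of the 3 pairs stood in the common list of 682 entries that the authors deposited with the antibody input. That list holds peaks common to both ChIPs, so this restates the overlap and adds no support to it. Among the 341 shared pairs of the series, 8 stood in the top 20 of both lists, and Junb, Per1 and Otud1 were 3 of these 8, by the same folds that chose the genes.

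**Figure D2:**
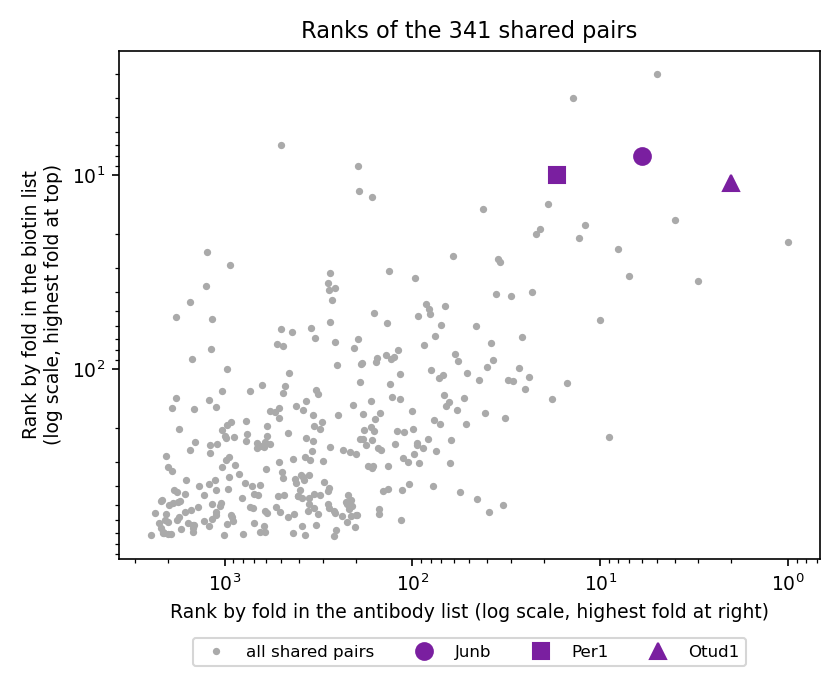
Rank by fold in the antibody list (horizontal, log axis, highest fold at the right) against rank in the biotin list (vertical, log axis, highest fold at the top) for the 341 shared pairs, each a grey point, with Junb, Per1 and Otud1 marked. The 3 marked pairs lie in the upper right corner, at antibody ranks 6, 17 and 2 and biotin ranks 8, 10 and 11.

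The shared pairs differed in how their peaks met. At Otud1 the peaks covered nearly the same stretch, with 100 bp in common and summits 13 bp apart. At Junb the antibody peak of 25 bp lay wholly inside the biotin peak of 104 bp, and the summits were 4 bp apart. Both of these pairs had summits closer together than the median of 20 bp over all 341 pairs.

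At Per1 the peaks met only at their ends. They shared 7 bp, or 17.5% of the shorter peak, and the summits were 22 bp apart. The antibody summit (position 68908364) was the last base of the biotin peak. When an overlap of 50% of the shorter peak was asked for, the Per1 pair was no longer counted and 2 pairs remained. Of the 341 pairs, 28 (8.21%) were lost under that definition. The combined stretch of both peaks was 104 bp at Junb, 80 bp at Per1 and 107 bp at Otud1.

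The antibody peaks at Junb and Per1 were narrow for their list. Their widths were 25 and 40 bp against a median of 90 bp, and 6.26% and 11.2% of antibody peaks were narrower. The Otud1 antibody peak, at 101 bp, was wider than 59.7% of the list. In the biotin list, with a median width of 84 bp, the Per1 peak measured 47 bp, the Junb peak 104 bp and the Otud1 peak 106 bp.

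**Figure D3:**
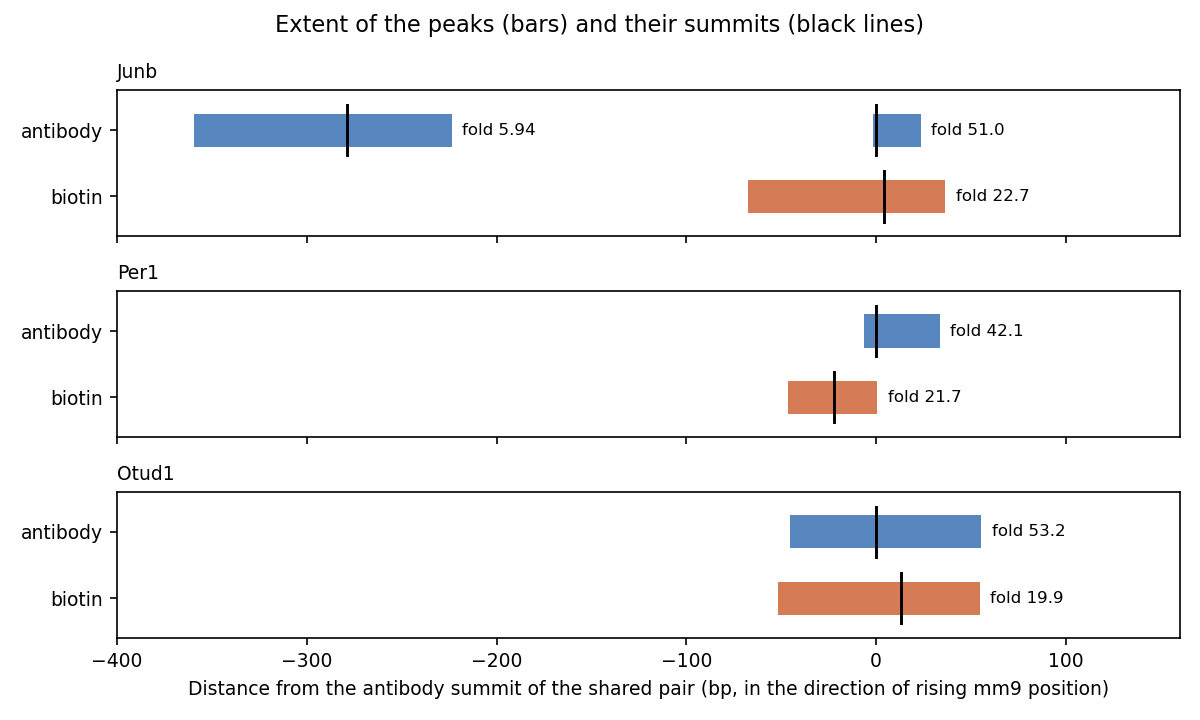
Extent (bars) and summit (black lines) of the antibody and biotin peaks near each shared site, as distance in bp from the antibody summit of the pair in the direction of rising mm9 position, with the fold of each peak printed beside it. The Otud1 bars cover the same stretch, the Junb antibody bar lies inside the biotin bar, the Per1 bars meet over 7 bp, and a second Junb antibody peak of fold 5.94 has its summit 279 bp to the left.

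Junb was the only member with further peaks in its window, and these were weak and each seen in a single list. A second antibody peak (chr8:87502429-87502564) had its summit 279 bp from that of the strong peak, with a fold of 5.94 and rank 2179 of 2507. In the antibody list, 8.86% of peaks had another antibody summit within 1000 bp. The gap between this peak and the biotin peak was 156 bp. Its deposited p-value of 1.23e-12 was exceeded by 303 of the 2507 antibody peaks, and the largest p-value of that list was 7.49e-12.

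A second biotin peak lay 7202 bp from the strong biotin summit, at chr8:87509898-87510051, with a fold of 3.87 and rank 607 of 723. The nearest antibody summit was 7206 bp away, at the strong site. Its deposited p-value of 3.01e-12 was exceeded by 38 of the 723 biotin peaks. Whether the other list has reads at either weak site was not analysed here.

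The 3 shared sites differed in how close other peaks lay. The Otud1 site stood alone, with the next antibody summit 1592507 bp away and the next biotin summit 4602530 bp away. Only 5.23% of antibody peaks and 7.47% of biotin peaks were at least as far from their nearest neighbour. At Per1 the next antibody summit was at 140793 bp and the next biotin summit at 662894 bp, distances reached or exceeded by 39.1% and 43.0% of peaks in the respective list. The Junb site, with its weak neighbours at 279 and 7202 bp, was among the more crowded ones, as 97.6% of antibody and 90.7% of biotin peaks were at least as far from their nearest neighbour.

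The nearest antibody peaks outside the windows were of lower fold. At Otud1 and Junb this follows from their shared peaks being the highest of their chromosomes. At Junb the nearest antibody peak (chr8:87364586-87364600) lay 85405 bp below the window with a fold of 23.1 and rank 169, and had no biotin partner. At Per1 the nearest antibody peak (chr11:69049124-69049191) lay 75157 bp above the window with a fold of 8.96, also without a partner. At Otud1 the nearest antibody peak lay 1542178 bp below the window and had a fold of 8.17.

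**Figure D4:**
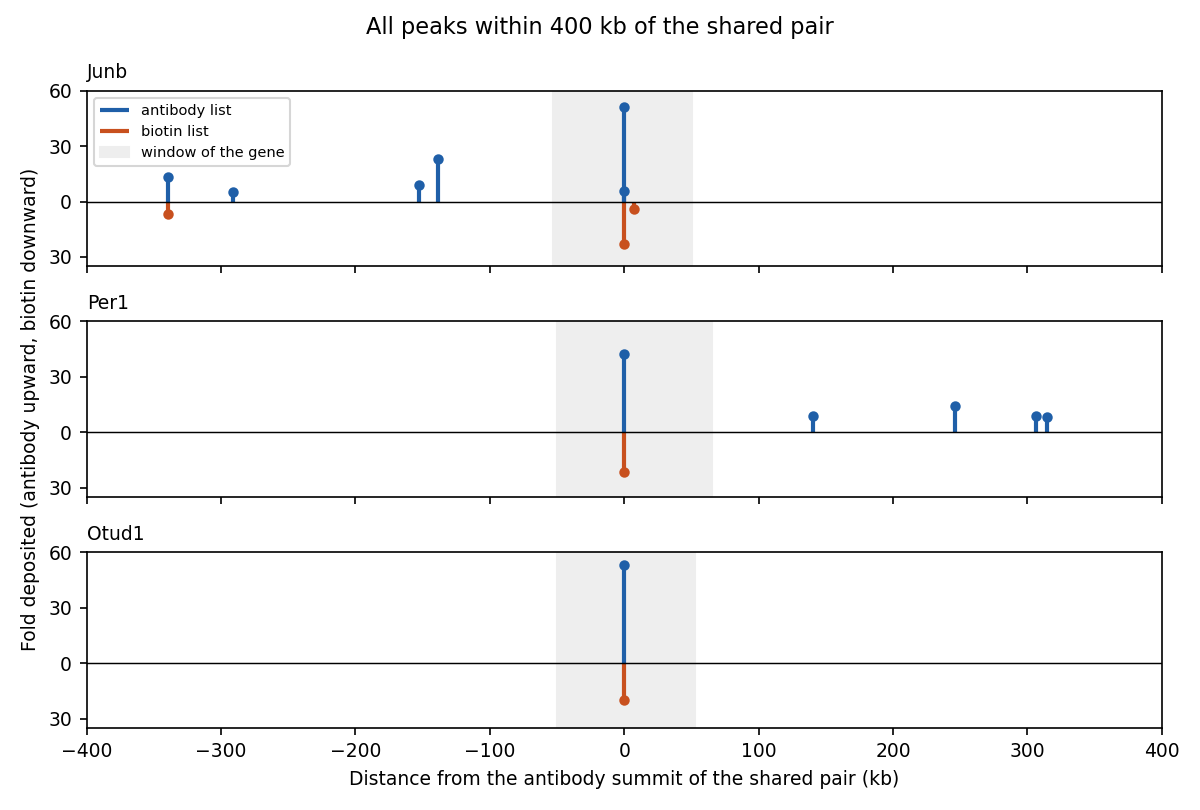
Fold of every peak within 400 kb of the shared site, with antibody peaks drawn upward and biotin peaks downward, against distance from the antibody summit in kb; grey bands are the windows of the genes. Otud1 shows a single site, Per1 has 4 further antibody peaks to the right, and Junb has 5 further antibody peaks to the left, of which the nearest, 279 bp away, is drawn on the line of the shared site and the farthest has a biotin partner.

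With the flanks of about 50 kb taken off, the windows leave the approximate extent of each gene, rounded to 1 kb. All 3 shared sites lay near the end at which transcription starts. Junb is on the minus strand, and its shared antibody summit was 212 bp below the upper end of that extent (87503000). Per1 and Otud1 are on the plus strand, and their antibody summits were 364 and 329 bp above the lower end (68908000 and 19579000). An annotation of mm9 was not used here, so distances to the starts themselves are not given and a site cannot be placed before or after a start. The second Junb antibody peak lay farther into the gene's extent, and the second biotin peak lay 6994 bp beyond its upper end, outside it on the side of the start.

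The forkhead core was searched on both strands in promoters of 300 bases (250 before and 50 after the start) from RefSeq. It was found at 2 of the 3 genes, Junb and Otud1, and at 4.05% of all 27025 genes in any listed promoter. Counted by promoter, it was found in 2 of the 4 of these genes and in 1199 of all 32851 (3.65%). In the Junb promoter it began 135 bases upstream of the annotated start and read in the direction of transcription. In the Otud1 promoter it began 28 bases upstream and read in the opposite direction. The core sites with 10 bases on either side are shown in the direction of the core, from chr8:84978867-84978893 and chr2:19657693-19657719 (GRCm38.p6, both on the minus strand of the chromosome), with the core in capitals.
Junb: tcgtggccgcTGTTTACaaggacacgc
Otud1: gggccgcgctTGTTTACctcaggccgc

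The sites shared no longer run than the core. The identical run was 7 bases long, and 6 of the 20 flanking bases were the same in both. Whether either match lies under a peak cannot be read from these data, since the promoters and the peaks are given on different builds.

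Neither listed Per1 promoter held the core. In the gene table of the same build, these starts lie 3841 and 5044 bp inside the gene's span. The shared summits lay 364 bp (antibody) and 342 bp (biotin) above the lower end of the window's extent. By these distances, taken on different builds, the listed Per1 promoters appear to lie away from the stretch that the peaks cover. Their sequences are not read as features of the peak site. The absence of a match in them says only that these letters are not in those promoters. The variant TGTTTGC, found in 5.07% of promoters, occurred in none of the 4 promoters of the 3 genes. With the last base of the core left out (TGTTTA, 13.4% of promoters), the same 2 genes had a match.

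Other motifs were looked for after the promoter sequences had been seen. The E-box CACGTG, in 7.15% of promoters, lay 54 bases upstream of the Otud1 start and 166 bases upstream of the first Per1 start. The short cyclic AMP response motif TGACG, in 20.8% of promoters, occurred in all 4 promoters, and at Otud1 it overlapped the E-box. The CCAAT box (CCAAT, 37.4% of promoters) occurred at Junb and in both Per1 promoters. The GC box (GGGCGG, 35.7%) occurred at Otud1 and in both Per1 promoters. The AP-1 site TGANTCA, in 7.81% of promoters, was found in none of the 4.

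**Figure D5:**
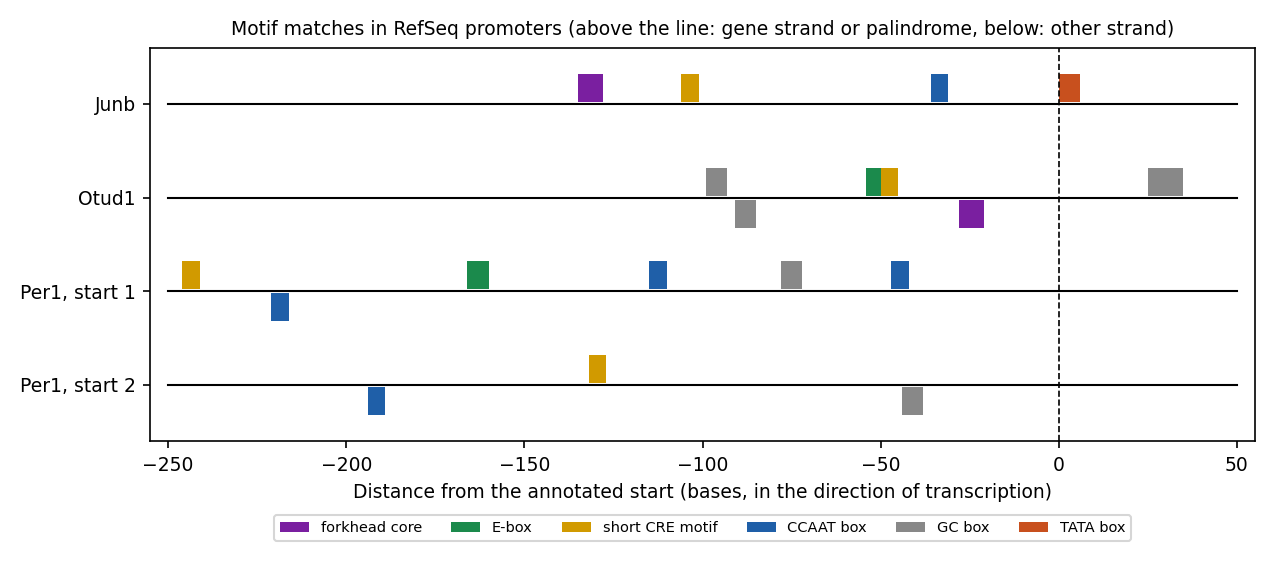
Motif matches in the 4 RefSeq promoters of Junb, Otud1 and Per1 by distance from the annotated start (bases, in the direction of transcription; dashed line, the start), with matches on the gene's strand or palindromes above the line and matches on the other strand below. The forkhead core appears at Junb (135 bases upstream) and Otud1 (28 bases upstream), and the E-box at Otud1 (54 bases upstream) and the first Per1 start (166 bases upstream).

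Among the relatives of the 3 genes, 2 others held the forkhead core, Cry1 and Yod1. Of 26 AP-1 and immediate early genes, 22 were matched in the promoter table, and of these only Junb had the core. Of 18 clock genes, 15 were matched, and the core occurred in Cry1, a clock repressor that works with the PER proteins, where it began 95 bases upstream of the start. Of 15 OTU deubiquitinases, 12 were matched, and the core occurred in Otud1 and in Yod1, where it began 163 bases upstream. Over all genes in the table, 4.05% had the core in a listed promoter, against 4.55%, 6.67% and 16.7% of the matched genes of these lists. Each of these shares rests on 1 or 2 genes, and the lists include the members. Genes of these lists that were not matched were not analysed here.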

How the data were processed

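Peak lists of the antibody and the biotin ChIP were used as deposited, together with the authors' common list. The submitters' processing notes name CASAVA 1.4, Bowtie 0.12.7 and the build mm9. The sources used here do not give the peak caller, and the list names state a false discovery rate of 0.05. The fold is a linear ratio and the p-value the caller's own, both as deposited, per the file headers. The common list has no header and was read with the column order of the other lists. Starts were raised by 1 so that positions count from 1. Members were peaks with a summit in the windows, and named genes were these members plus, for the promoter motif, 3 gene families. Members and lists were chosen with earlier results of these data known. No test was run, as each group has 1 library. Overlap was at least 1 bp, and ranks run from the highest fold. Alternatives were other windows, other definitions of a pair, parts of the lists by fold, other reference sets for the ranks and other motifs. Overlap, rank and motif routines were tested on simulated data. Promoters came from RefSeq (GRCm38.p6), matched by symbol for all 3 genes, and their coordinates were not converted. Python 3.11.15 and pandas 2.3.3 were used.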

Additional observations from a re-analysis of the deposited data

How the results depend on the processing

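None of the 17 alternatives for the counts moved a count by more than 1.5 times, and no direction was at stake. Many of these alternatives were constrained in advance, so this tally is not a measure of robustness. Cutoffs by fold used the values that chose the genes. The other forms of the motif include every match of the core, so they could not lose one. Member peaks per list stayed at 4 with windows narrowed by 25 kb or widened by 50 kb on each side, and fell to 3 in each list, without the weak Junb peaks, in the top 50% and the top 25% by fold. Shared pairs numbered 3 with summits within 50 bp and in the top 25% by fold, 2 when at least 50% of the shorter peak had to overlap and 4 with summits within 1000 bp, which adds the second Junb antibody peak. Against the whole list, the same chromosome, peaks of similar width or shared peaks only, 6 member peaks were in the top 10% by fold each time. The genes were chosen by the high folds of these peaks, so this count was largely fixed by that choice. The weak Junb peaks are not part of the shared set. The rank of a single peak was given as the percentage of the reference set at or above its fold. Of 22 alternatives for it, 9 moved it beyond its counting interval (95% confidence level). That interval measures no spread between libraries. Among shared peaks only, the antibody percentage went from 0.0798 to 0.587 at Otud1, from 0.239 to 1.76 at Junb and from 0.678 to 4.40 at Per1. Within the same chromosome it was 0.541, 0.694 and 1.64, and the Junb biotin percentage went from 1.11 to 2.27. These reference sets hold fewer peaks, so a given rank is a larger percentage of them. In the whole antibody list, Otud1, Junb and Per1 had ranks 2, 6 and 17. Among shared peaks they had ranks 2, 6 and 15, and within their chromosomes 1, 1 and 3. The Otud1 and Junb antibody peaks and the Junb biotin peak ranked 1 on their chromosomes, where no lower percentage is possible. Among peaks of similar width, the weak Junb peaks went from 86.9 to 79.4 (antibody) and from 84.0 to 71.0 (biotin). No paired analysis was possible because there is a single library in each group, which also means that none could be left out. As the depth is unknown, a peak missing from a list does not show that the site is unbound.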

Other observations

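The summits of the narrow antibody peaks, those at Junb and Per1, lay nearer to an edge than to the centre. At Junb the summit was base 2 of 25 and at Per1 base 7 of 40, whereas at Otud1 it was base 46 of 101. In the biotin list the summits were base 72 of 104, 25 of 47 and 65 of 106 in the same order. How often a summit lies near an edge over the lists, and whether this goes with width, was not analysed here.

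The promoters of the 3 genes had a high GC content. The content over 300 bases was 70.3% at Otud1, 65.3% at Junb and 63.3% and 64.7% at the Per1 starts, against a median of 52.7% (interquartile range 45.7 to 61.7%) over all 32851 promoters. CpG dinucleotides numbered 33 at Otud1, 21 at Junb, and 16 and 21 at Per1, against a median of 7. The share of all promoters with fewer was 91.4% for Otud1, 75.2% for Junb, and 67.0% and 75.2% for the Per1 starts. In the Junb promoter, the motif TATAAA, found in 13.6% of promoters, began at the annotated start itself (0 bases from it).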
